A study of Rattus norvegicus with 22 samples.

Results

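The nuclear genes for subunits, assembly factors and regulators of the mitochondrial respiratory chain were described in rat liver after an inhibitor of that chain had been given. They were chosen by symbol alone: all genes with a single symbol in the platform annotation that begins with Nduf, Uqcr, Uqcc, Cox4 to Cox8, Cox1 followed by a digit, or Atp5. This gave 108 of 18166 measured genes. The symbols of 18 mark copies or pseudogenes, and these were kept apart from the complexes, a choice made after the data were seen. The other 90 genes comprised 6 core and 26 accessory subunits and 8 assembly factors of complex I, 7 subunits and 5 assembly factors of complex III, 17 subunits and 7 assembly factors of complex IV, and 13 subunits and 1 regulator of complex V. Cox7a2l, which joins complexes III and IV, was placed with the assembly factors, and Ndufa4 and Ndufa4l2 with the subunits of complex IV.

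Livers came from 22 female Crl:CD(SD) rats, an outbred Sprague-Dawley stock, labelled as 12 weeks old. Vehicle was given to 12 rats, and 10 rats received GSK932121A, which the series title calls an inhibitor of complex III, at 50 mg/kg. Both groups had a single intraperitoneal injection at 10 mL/kg, and the vehicle held the formulation without the compound. Treated livers were taken at 5 h, and for vehicle livers no time is labelled. Each group had begun with 12 rats, 2 of which, both treated, the submitters dropped for low plasma exposure. RNA of the median lobe was hybridised to 1 Affymetrix array per rat, and values are RMA expression on the log2 scale.

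Complex I takes electrons from NADH and complex III from ubiquinol, complex IV passes them from cytochrome c to oxygen, and complex V uses the resulting proton gradient to make ATP. Each is built from many subunits with the help of assembly factors, which insert cofactors or hold partly built modules and mostly do not stay in the finished enzyme. Most subunits are encoded in the nucleus, and the factors NRF1, GABP, YY1 and the ERR receptors, with the coactivator Ppargc1a, are known regulators of their transcription. The rule takes in nuclear genes only, and 10 further probe sets with several symbols, among them those of Ndufa10, Atp5f1c and Cox7a2, were not used.

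Array medians lay between 4.73 and 4.85. The mean of 17 of the 108 genes lay below the median of every array, 9 of them copies or pseudogenes and 8 others, including Cox6a2 and Cox8b, isoforms known from heart and skeletal muscle. Hepatocyte markers averaged 11.54 to 11.67 per vehicle array and 11.49 to 11.65 per treated array, and 0 of 6 passed the test. The averages for markers of other cells were 7.36 to 7.99 and 7.48 to 7.98 for Kupffer cells, 6.63 to 7.33 and 6.61 to 7.70 for stellate cells, and 8.38 to 8.71 and 8.45 to 8.73 for endothelial cells, in the vehicle and treated group. Of 7 Kupffer cell markers 1 passed, Cd163, 1.28-fold higher after GSK932121A (limma adjusted p = 0.00461), and 2 had a difference below 0. Of 3 endothelial cell markers 1 passed, Lyve1, 1.16-fold higher (limma adjusted p = 0.0201), and 1 had a difference below 0. Of 6 stellate cell markers 0 passed. Without the 6 arrays named below, the limma adjusted p of Cd163 and Lyve1 was 0.0411 and 0.137. The part of these cell types in the results was not tested. Averages for cholangiocyte, erythroid and striated muscle markers reached 5.36, 5.02 and 4.73 at most. Vehicle replicates 6, 8 and 10 and treated replicates 13, 16 and 23 stood apart from the rest of their groups in many genes, and values without these 6 arrays are given beside the differences that they move most.

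Few of the respiratory chain genes changed, and those that did changed by less than 1.5-fold. In limma, with Benjamini-Hochberg adjustment over all genes, 7 of the 108 passed at an adjusted p under 0.05 (6.48%), against 12.4% of all genes. Of these, 2 were higher after GSK932121A, where 5.31% of all genes were, and 5 were lower, where 7.05% of all genes were. The median log2 difference over the 108 genes was -0.06, against -0.01 over all genes, and 71.3% of their differences lay below 0, against 52.4% of all genes. Among genes with a mean log2 value of at least 7, 3 of 53 respiratory chain genes had passed (5.66%), against 23% of all genes that bright. When only genes of that brightness were tested, 7 respiratory chain genes passed, where 29% of such genes did: Ndufa5, Ndufa6 and Ndufc1 together with Uqcrc2, Ndufa7, Ndufv3 and Atp5f1a. In none of the 108 did the arrays of both groups fail to overlap, which they did in 0.738% of all genes. In whole tissue, fewer cells of a type and less RNA per cell cannot be told apart.

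For the genes that did not pass, the intervals bound the size of a change. Of these 101 genes, 96 had a 95% interval, not adjusted for the number of genes, that lay within 1.5-fold in both directions, and 41 had one within 1.2-fold. The widest of the genes outside the copies was that of Uqcr11, whose interval reached a 1.65-fold fall. On simulated data with the same numbers of arrays and genes, the test recovered 95.5% of 67 genes changed 1.5-fold and 20.9% of 67 changed 1.2-fold. Far fewer genes were changed there than the 2244 that passed in these data, so the adjustment was stricter. The simulated noise was also independent between genes. These shares therefore do not give the power of the test on the real arrays.

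**Figure D1:**
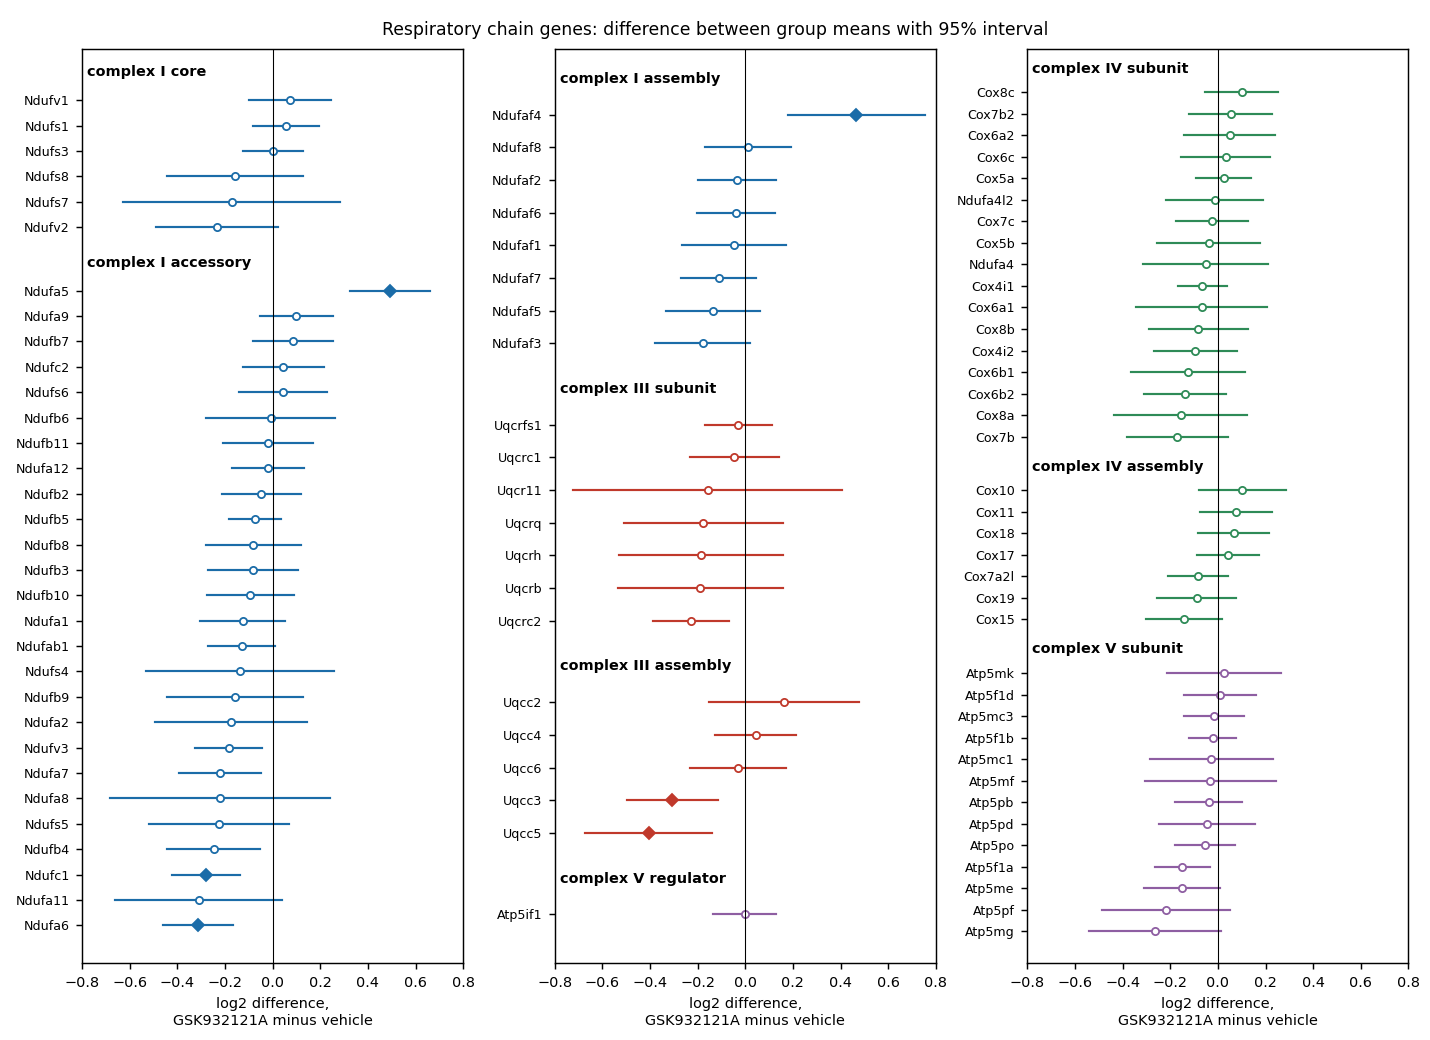
Log2 difference between the GSK932121A and vehicle means (x axis, log2 units) for the 90 respiratory chain genes outside the copies, by complex and role, with 95% intervals. Filled diamonds mark the 6 genes with an adjusted p under 0.05, and all 7 points of the complex III subunits lie left of 0.

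In complex I, 1 accessory subunit and 1 assembly factor rose and 2 accessory subunits fell. These were 4 of its 40 genes, where 12.4% of all genes passed. The gene with the lowest adjusted p was Ndufa5, which encodes an accessory subunit of the matrix arm. Its vehicle arrays ranged from 6.61 to 7.01 with a median of 6.87, and its treated arrays from 6.83 to 7.59 with a median of 7.41. Of the 10 treated arrays, 9 lay above every vehicle array, and replicate 24 lay within the vehicle range. Ndufa5 was 1.41-fold higher (log2 difference 0.49 ± 0.08, SE, n = 12 and 10, limma adjusted p = 0.000147). The largest adjusted p with any array left out was 0.000439. Without the 6 arrays named above the difference was 0.40 (limma adjusted p = 0.0162).

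Ndufaf4 encodes an assembly factor that works with Ndufaf3 early in the building of complex I. Its values were 4.55 to 5.73 with a median of 5.22 on vehicle arrays and 5.23 to 6.20 with a median of 5.60 on treated arrays. All 10 treated arrays exceeded the vehicle median, 5 of them exceeded every vehicle array, and the other 5 overlapped the vehicle range. The log2 difference was 0.47 ± 0.14 (SE), or 1.38-fold, with a limma adjusted p of 0.0258. Leaving out treated replicate 13, 20 or 21 ended the call, with adjusted p up to 0.0555, as did the Wilcoxon rank sum test (adjusted p = 0.107). Its partner Ndufaf3 had a difference of -0.18 ± 0.10 (limma adjusted p = 0.271), or -0.10 without the 6 arrays, and the remaining 6 complex I factors lay between -0.14 and 0.01.

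The RefSeq windows from 250 bases before to 50 bases after the annotated start of both raised genes are shown because no other gene of the 108 rose. Capitals mark matches to the motifs described further on, base 251 is the start, and the build is GRCr8. The Ndufa5 window is chr4:53971186-53971485 on the minus strand, with an NRF1 match from base 219 and an Sp1 match over the start.
Ndufa5: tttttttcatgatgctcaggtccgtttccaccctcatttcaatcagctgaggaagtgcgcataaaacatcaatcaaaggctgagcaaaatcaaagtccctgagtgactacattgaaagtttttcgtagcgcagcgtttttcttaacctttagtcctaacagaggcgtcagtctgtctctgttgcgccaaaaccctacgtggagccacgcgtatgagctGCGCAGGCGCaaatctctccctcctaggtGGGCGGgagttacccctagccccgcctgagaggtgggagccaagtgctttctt
The Ndufaf4 window is chr5:43401545-43401844 on the plus strand, with an NRF1 match from base 93, an Sp1 match from base 115 and an E-box over the start.
Ndufaf4: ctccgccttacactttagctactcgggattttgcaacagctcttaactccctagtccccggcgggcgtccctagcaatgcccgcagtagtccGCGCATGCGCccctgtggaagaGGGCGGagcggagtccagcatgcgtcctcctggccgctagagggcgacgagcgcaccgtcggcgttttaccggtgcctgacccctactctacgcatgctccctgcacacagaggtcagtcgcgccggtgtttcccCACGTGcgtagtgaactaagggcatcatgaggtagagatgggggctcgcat

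Of the lower accessory subunits, Ndufa6 encodes a matrix-arm protein of the LYR family that holds the acyl carrier protein Ndufab1. Vehicle arrays ranged from 8.84 to 9.30 with a median of 9.16, and treated arrays from 8.39 to 8.96 with a median of 8.83. Every treated array lay below the vehicle median and 5 lay below every vehicle array. Ndufa6 fell by 0.31 on the log2 scale (SE 0.07, 1.24-fold, limma adjusted p = 0.00356). Ndufab1 itself had a difference of -0.13 ± 0.07 (limma adjusted p = 0.255).

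Ndufc1, a small subunit of the membrane arm, had vehicle values of 8.85 to 9.41 with a median of 9.16 and treated values of 8.55 to 9.06 with a median of 8.85. Treated replicate 13 was the lowest array, 5 treated arrays lay below every vehicle array, and the rest overlapped. Ndufc1 fell by 0.28 on the log2 scale (SE 0.07, 1.21-fold, limma adjusted p = 0.0067), and the call held with each array left out in turn. Its neighbour by name, Ndufc2, had a difference of 0.04 ± 0.08, or 0.03 without the 6 arrays. Windows of both lowered subunits are shown for comparison with those of the raised genes. That of Ndufa6 is chr7:115750268-115750567 on the minus strand, with matches to GABP, Sp1 and YY1, and that of Ndufc1 is chr2:137601686-137601985 on the minus strand, with a single Sp1 match.
Ndufa6: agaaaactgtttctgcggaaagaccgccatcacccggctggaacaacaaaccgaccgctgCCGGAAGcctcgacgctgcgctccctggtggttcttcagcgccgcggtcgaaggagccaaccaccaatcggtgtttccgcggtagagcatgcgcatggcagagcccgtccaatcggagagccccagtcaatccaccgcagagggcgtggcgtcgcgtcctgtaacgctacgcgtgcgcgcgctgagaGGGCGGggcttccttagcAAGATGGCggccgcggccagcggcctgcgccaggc
Ndufc1: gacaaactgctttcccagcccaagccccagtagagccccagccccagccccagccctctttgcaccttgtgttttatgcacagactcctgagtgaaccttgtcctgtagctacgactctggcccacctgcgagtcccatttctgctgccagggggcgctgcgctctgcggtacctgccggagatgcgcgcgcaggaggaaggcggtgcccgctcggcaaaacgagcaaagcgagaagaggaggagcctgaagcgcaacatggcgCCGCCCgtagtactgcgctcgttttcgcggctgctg

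None of the 6 core subunits of complex I passed. Their differences ran from -0.24 ± 0.12 for Ndufv2, which carries an iron-sulphur cluster of the NADH-oxidising module (limma adjusted p = 0.259), to 0.07 ± 0.08 for the NADH-binding Ndufv1 (limma adjusted p = 0.66), which was at 0.15 without the 6 arrays. Of the 26 accessory subunits, 21 had a difference below 0, with a median of -0.11. Next to Ndufa6 in size stood Ndufa11 at -0.31 ± 0.17, and its treated arrays (8.47 to 9.53) lay almost wholly within the vehicle range (8.52 to 10.04). Ndufa5 thus stood alone at the top of its class, the next difference being 0.10 ± 0.07 for Ndufa9.

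Complex III, the labelled target of the compound, showed no subunit past the threshold, and 2 of its 5 assembly factors fell. Over all genes 12.4% passed and 7.05% were lower. Counts over so few genes say little about the complex. All 7 subunits had a difference below 0, with a median of -0.18. This shared direction depended on the fit: without the 6 arrays 6 of 7 lay below 0, with a median of -0.19, and with 5 surrogate variables Uqcr11, Uqcrb, Uqcrfs1 and Uqcrh lay above 0, at 0.12, 0.03, 0.03 and 0.03. Closest to the threshold was Uqcrc2, one of the large core proteins on the matrix side. Its vehicle arrays ranged from 9.18 to 9.82 with a median of 9.38 and its treated arrays from 9.03 to 9.35 with a median of 9.17. All 10 treated arrays lay below the vehicle median, 5 lay below every vehicle array, and the others overlapped. The difference was -0.23 ± 0.08 (1.17-fold, limma adjusted p = 0.056). It passed with renewed quantile normalisation (adjusted p = 0.0485) and with an intensity trend and robust settings (0.0473), and lay at 0.112 with cyclic loess.

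The other core protein, Uqcrc1, had a difference of -0.05 ± 0.09, and Uqcrfs1, the Rieske iron-sulphur protein, one of -0.03 ± 0.07. Their treated arrays spread over nearly the same range as the vehicle arrays, 7.42 to 8.19 against 7.63 to 8.24 for Uqcrc1 and 6.76 to 7.24 against 6.83 to 7.27 for Uqcrfs1. The small subunits lay a little lower with wide errors, Uqcrb at -0.19 ± 0.17, the hinge protein Uqcrh at -0.19 ± 0.17, Uqcrq at -0.18 ± 0.16 and Uqcr11 at -0.16 ± 0.27. Uqcr11 had the widest spread, from 8.40 to 10.89 over vehicle arrays with a median of 10.26 and from 8.77 to 10.38 over treated arrays with a median of 10.05. Its lowest values were those of vehicle replicates 6, 8 and 10 and of treated replicates 13, 16 and 23. Without these 6 arrays the differences of Uqcrc2, Uqcrq, Uqcr11 and Uqcrh were -0.27, -0.27, -0.24 and -0.19, and those of Uqcrb, Uqcrc1 and Uqcrfs1 were -0.06, -0.0094 and 0.03. None of the 7 subunits passed then.

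Among the assembly factors of complex III, Uqcc3 and Uqcc5 act around newly made cytochrome b. Uqcc3 ranged from 5.25 to 5.93 with a median of 5.60 on vehicle arrays and from 5.01 to 5.65 with a median of 5.19 on treated arrays, of which 6 lay below every vehicle array. It fell by 0.31 on the log2 scale (SE 0.09, 1.24-fold, limma adjusted p = 0.0283). Leaving out vehicle replicate 7 or 11 or treated replicate 14, 17 or 18 ended the call (adjusted p up to 0.0597), and without the 6 arrays the adjusted p was 0.0718. Uqcc5 ranged from 4.37 to 5.55 with a median of 4.85 on vehicle arrays and from 4.03 to 4.85 with a median of 4.54 on treated arrays, 4 of them below every vehicle array.

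Uqcc5 fell by 0.41 on the log2 scale (SE 0.13, 1.32-fold, limma adjusted p = 0.0399), but this call was fragile. Its mean lay below the median of every array, it was lost in 10 of 22 fits that each left out 1 array (adjusted p up to 0.0872), and after median centring the adjusted p was 0.0562. Without the 6 arrays 0 of the 5 factors passed, and the adjusted p of Uqcc5 was 0.0511. Uqcc2, which binds cytochrome b as it is made, had a difference of 0.16 ± 0.15, Uqcc4 one of 0.04 ± 0.08 and Uqcc6 one of -0.03 ± 0.10. These were 0.05, 0.06 and 0.04 without the 6 arrays. The 3 windows below belong to the 2 lowered factors and to Uqcrc2, the subunit with the lowest p. They are chr1:215203429-215203728 on the minus strand for Uqcc3, chr16:6326862-6327161 on the minus strand for Uqcc5 and chr1:184598990-184599289 on the plus strand for Uqcrc2. Uqcc5 holds an NRF1 and an Sp1 match, Uqcc3 an Sp1 match, and Uqcrc2 2 GABP matches.
Uqcc3: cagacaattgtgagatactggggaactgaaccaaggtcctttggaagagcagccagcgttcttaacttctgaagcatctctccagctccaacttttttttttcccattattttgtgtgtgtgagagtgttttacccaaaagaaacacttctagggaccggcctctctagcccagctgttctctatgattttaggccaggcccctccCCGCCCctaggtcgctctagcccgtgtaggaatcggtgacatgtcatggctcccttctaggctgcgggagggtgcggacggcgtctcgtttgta
Uqcc5: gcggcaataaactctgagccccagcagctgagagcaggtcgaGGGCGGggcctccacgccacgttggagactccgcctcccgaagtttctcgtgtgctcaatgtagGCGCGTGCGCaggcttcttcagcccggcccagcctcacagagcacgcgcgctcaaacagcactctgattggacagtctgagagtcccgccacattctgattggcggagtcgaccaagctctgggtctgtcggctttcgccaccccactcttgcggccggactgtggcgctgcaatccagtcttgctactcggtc
Uqcrc2: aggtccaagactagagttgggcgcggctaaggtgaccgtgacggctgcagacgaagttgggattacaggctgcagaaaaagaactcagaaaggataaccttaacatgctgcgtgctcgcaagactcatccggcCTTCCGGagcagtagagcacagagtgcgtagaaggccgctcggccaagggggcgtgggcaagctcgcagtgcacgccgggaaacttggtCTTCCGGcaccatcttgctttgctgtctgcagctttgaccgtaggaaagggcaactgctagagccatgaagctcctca

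**Figure D2:**
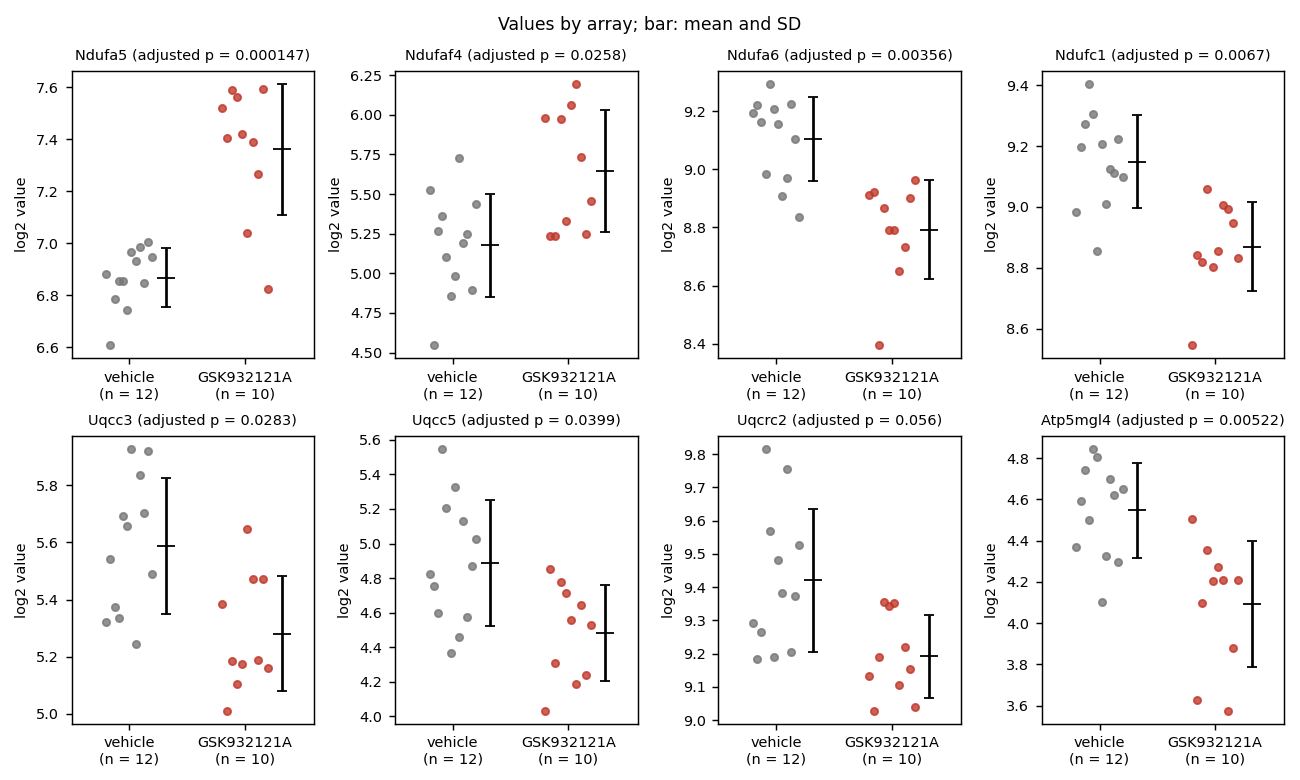
Log2 value on each array (points, vehicle grey, GSK932121A red) with mean and SD (bars) for the 7 genes that passed and for Uqcrc2, with limma adjusted p. The treated arrays of Ndufa5 lie above all vehicle arrays except for replicate 24, and the other panels overlap more.

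None of the 24 genes of complex IV passed, where 12.4% of all genes did, and differences were small. The 17 subunits lay between -0.17 ± 0.10 for Cox7b and 0.10 ± 0.07 for Cox8c, with a median of -0.05. Cox4i1, the common form of a regulatory subunit, had vehicle values of 9.14 to 9.45 and treated values of 9.14 to 9.36, which overlapped almost wholly, and a difference of -0.06 ± 0.05. Its alternative form Cox4i2 had a difference of -0.09 ± 0.08. The liver-type forms Cox6a1 and Cox8a differed by -0.07 ± 0.13 and -0.16 ± 0.14, and the muscle forms Cox6a2 and Cox8b by 0.05 ± 0.09 and -0.08 ± 0.10. No isoform pair thus held a member past the threshold. Once the 6 arrays were left out, Cox4i1, Cox4i2, Cox6a1, Cox6a2 and Cox8c were at -0.03, -0.19, -0.0081, 0.03 and -0.0039, and the lowest and highest of the subunits at -0.24 (Cox7b) and 0.10 (Cox5a).

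The 7 assembly factors of complex IV had a median difference of 0.04. The extremes were both enzymes of heme A synthesis: Cox10 at 0.10 ± 0.09 (limma adjusted p = 0.531) and Cox15 at -0.14 ± 0.08 (limma adjusted p = 0.269). Their treated arrays ranged from 5.51 to 6.36 against 5.52 to 6.10 in vehicle for Cox10, and from 6.39 to 6.93 against 6.52 to 7.01 for Cox15. Cox10 was at 0.15 and Cox15 at -0.04 without the 6 arrays. Cox7a2l, the supercomplex factor, had a difference of -0.08 ± 0.06.

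None of the 14 genes of complex V passed, where 12.4% of all genes did. The lowest difference was that of Atp5mg, a subunit of the membrane part, at -0.27 ± 0.13 (limma adjusted p = 0.235), and the highest that of Atp5mk, a small membrane subunit, at 0.03 ± 0.12. Atp5mg ranged from 7.42 to 9.12 over vehicle arrays and from 7.98 to 8.53 over treated arrays, so the treated arrays lay inside the vehicle range. Without vehicle replicate 12 it passed, and its difference was -0.37. It was -0.14 without the 6 arrays (limma adjusted p = 0.72), and the lowest difference was that of Atp5pf, a subunit of the stalk, at -0.25. Atp5f1a, the alpha subunit of the catalytic head, had a difference of -0.15 ± 0.06 (limma adjusted p = 0.083). All 10 of its treated arrays (9.05 to 9.44) lay below the vehicle median of 9.46, and without the 6 arrays its difference was -0.10 (limma adjusted p = 0.406). The inhibitory factor Atp5if1 differed by -0.00305 ± 0.06, or by -0.05 without the 6 arrays.

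Of the 18 copies and pseudogenes, 1 passed. The array lists Atp5mgl4 as a locus of its own, at 4.10 to 4.84 on vehicle arrays and 3.58 to 4.50 on treated arrays, and it fell by 0.45 on the log2 scale (SE 0.11, limma adjusted p = 0.00522). Its mean lay below the median of every array, and near-identical copies can share probe signal, so this value is uncertain. Of the complex III copies, Uqcr10-ps1, Uqcc1-ps1 and Uqcr11l1 had differences of -0.15 ± 0.06, -0.11 ± 0.07 and 0.22 ± 0.12, or -0.08, -0.10 and 0.11 without the 6 arrays, and did not pass.

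The share that passed rests on small numbers in each role: 3 of 69 subunits (4.35%) and 3 of 20 assembly factors (15%), where 12.4% of all genes passed. Their median differences were -0.07 and -0.04. Below 0 lay 54 of the 69 subunits and 12 of the 20 factors. By complex, 4 of 40 genes passed in complex I, 2 of 12 in complex III, 0 of 24 in complex IV and 0 of 14 in complex V. At an unadjusted limma p under 0.05 no gene of complex IV and 1 of complex V, Atp5f1a, was counted, where 4354 of all 18166 genes were. By the Wilcoxon rank sum test 7 of the 108 genes passed, where 11.4% of all genes did. Atp5f1a and Uqcrc2 passed that test and Ndufaf4 and Uqcc5 did not. Without the 6 arrays 4 of 69 subunits (5.8%) and 1 of 20 assembly factors (5%) passed, where 6.33% of all genes did. These differences between classes were not tested.

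In lists of related genes outside the symbol rule 8 genes passed, and their shares are to be read against the 12.4% of all genes. Of complex II 0 of 7 passed, all with differences below 0 and a median of -0.09, and of other complex III and cytochrome c genes 0 of 5 passed. Of further complex I factors 2 of 8 fell, Tmem126b by 1.24-fold and Dmac1 by 1.28-fold. Of further complex IV factors 4 of 14 fell, Coa4 by 1.41-fold, Cmc2 by 1.22-fold, Cox20 by 1.21-fold and Taco1, an activator of Cox1 translation, by 1.16-fold, and Coa7 rose 1.25-fold. Of 4 complex V factors Dmac2l fell by 1.28-fold. Most of these calls were lost without the 6 arrays, where 6.33% of all genes passed, and with 5 surrogate variables, where 3.32% did. Coa4 and Cox20 passed without the 6 arrays, and the other 6 had limma adjusted p of 0.0537 (Dmac2l), 0.0564 (Tmem126b), 0.085 (Cmc2), 0.0999 (Dmac1), 0.102 (Coa7) and 0.109 (Taco1). With 5 surrogate variables Cmc2 alone of the 8 passed (limma adjusted p = 0.0231). When single arrays were left out, only Dmac1 of the 8 was lost (limma adjusted p up to 0.1004). The lists were chosen with earlier results of these data known.

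Of 10 regulators of respiratory chain genes, 3 rose and none fell, where 5.31% of all genes were higher and 7.05% lower. Ppargc1a rose 8.18-fold, from a mean of 6.25 ± 0.46 (SD, n = 12) to 9.28 ± 1.14 (n = 10), with a limma adjusted p of 3.9e-07. Ppargc1b rose 2.60-fold and Pprc1 1.32-fold. The DNA-binding partners Esrra, Nrf1 and Gabpa had differences of 0.00039 ± 0.07, -0.0041 ± 0.07 and 0.02 ± 0.08. Gabpb1, Tfam and Yy1 lay lower, at -0.37 ± 0.15, -0.23 ± 0.08 and -0.13 ± 0.07, and did not pass (limma adjusted p = 0.111, 0.0661 and 0.272). Ppara was at 0.02 ± 0.13. Over the same livers the respiratory chain genes gave the median of -0.06 stated above. Within each group the level of Ppargc1a was correlated with each of the 108 genes, 216 relations in all. None passed after Benjamini-Hochberg adjustment of two-sided permutation p-values (lowest adjusted p 0.365, 28 at an unadjusted p under 0.05), by Pearson's r or by Spearman's rho.

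Many respiratory chain genes varied together between animals of the same group. The median Pearson r over the 5778 pairs of the 108 genes was 0.0956 among vehicle livers and 0.149 among treated livers, against 0.001 and 0.003 over all pairs of genes. Among those with a mean log2 value of at least 7 it was 0.267 and 0.565, against 0.037 and 0.031 over all pairs of genes that bright. Subunits held most of this: median r was 0.199 and 0.376 between subunits, 0.0649 and 0.106 between a subunit and an assembly factor, and 0.0346 and 0.0615 between assembly factors. Most subunits had a mean of at least 7, but of the assembly factors only Cox11 (7.05) and Cox7a2l (8.36) did. Role and signal level therefore cannot be told apart in this contrast. These correlations share arrays and are given as a description with 12 and 10 livers.

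Subunits followed each other across complexes as well as within them. Median r was 0.246 for subunit pairs of the same complex and 0.175 for pairs of different complexes among vehicle livers, and 0.358 and 0.386 among treated livers. The complex III subunits were the most closely tied class in both groups, with median r of 0.662 and 0.68. Complex I subunits had 0.296 and 0.362, complex IV subunits 0.138 and 0.0561, and complex V subunits 0.159 and 0.569. Several complex IV subunits were dim isoforms, among them Cox7b2 (mean 2.82), Cox8c (3.57), Cox8b (4.46) and Cox6a2 (4.60). Complex and signal level were therefore not separated in this contrast. Close pairs were found both across complexes and within them. The closest among vehicle livers were Ndufv2 with Uqcr11 (r = 0.988, rho = 0.972, and 0.867 among treated livers), Ndufs4 with Uqcrq (r = 0.979, rho = 0.881, and 0.84 among treated livers) and Ndufa11 with Uqcrq (r = 0.979, rho = 0.965, and 0.815 among treated livers). Among treated livers they were Uqcr11 with Uqcrh (r = 0.98, rho = 0.782), both of complex III, Ndufa8 with Ndufs4 (r = 0.974, rho = 0.927), both of complex I, and Atp5f1d with Ndufv1 (r = 0.973, rho = 0.976, and 0.587 among vehicle livers). These pairs were picked by their values.

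**Figure D3:**
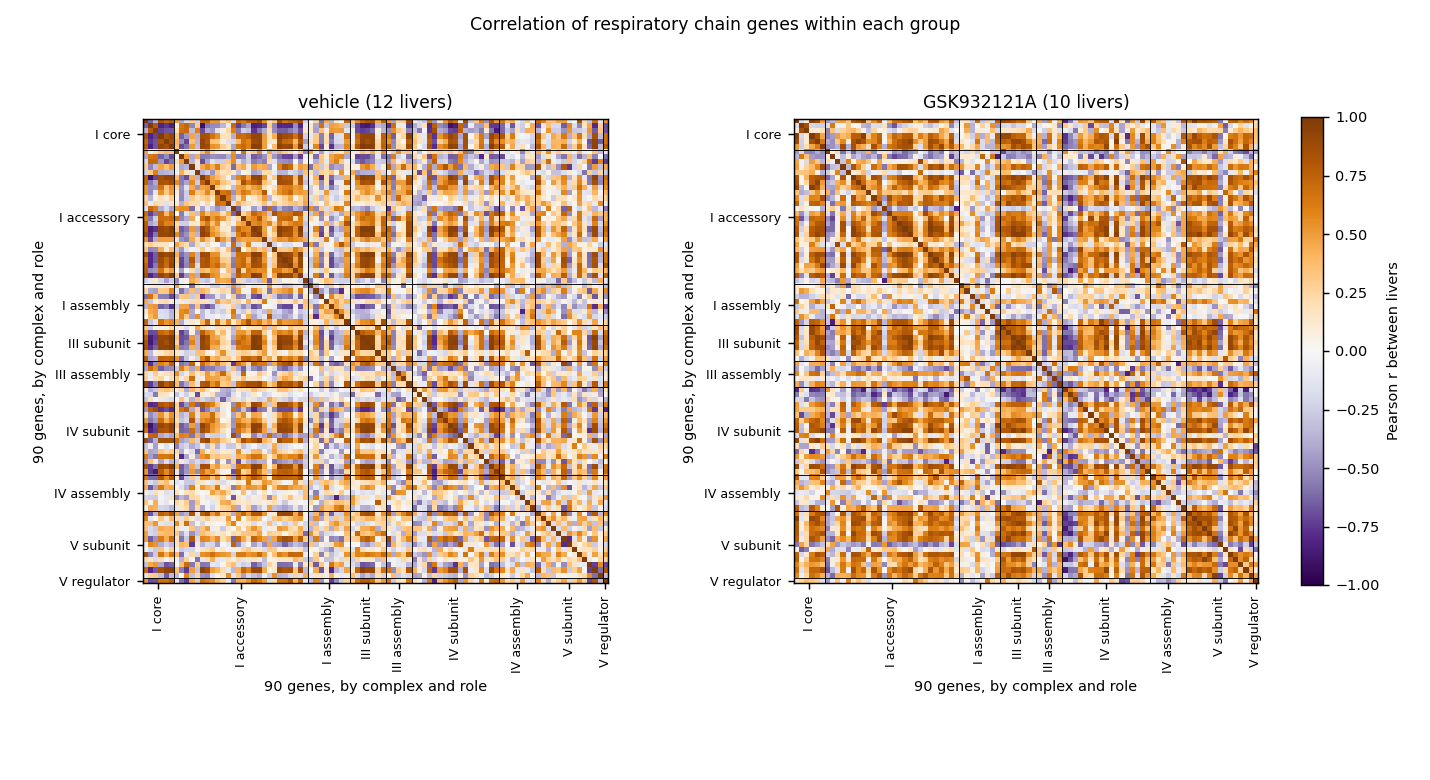
Pearson r between livers for each pair of the 90 respiratory chain genes (both axes, by complex and role), in 12 vehicle livers (left) and 10 GSK932121A livers (right). Brown bands run across the subunit classes of all complexes, and the assembly factor rows are paler, as in the medians of 0.199 and 0.376 for subunits and 0.0346 and 0.0615 for assembly factors. Most assembly factors were dimmer than most subunits.

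The mean of the complex I subunits followed that of the complex III subunits with r = 0.928 (rho = 0.951) among vehicle livers and 0.964 (rho = 0.879) among treated livers, and without the 2 arrays farthest from the median r was 0.94 and 0.873. The complex I and complex V means gave r = 0.726 (rho = 0.79) and 0.971 (rho = 0.976), and 0.771 and 0.898 without 2 arrays. The mean of the 69 subunits and that of the 20 assembly factors gave 0.534 (rho = 0.552) and 0.714 (rho = 0.855), and 0.652 and 0.758 without 2 arrays. No test of the difference between the groups was made. In complex I the assembly factors had r = -0.144 with the subunits among vehicle livers (rho = -0.0909, and 0.0123 without 2 arrays, so that its sign rests on those arrays) and 0.416 among treated livers (rho = 0.442, and 0.622 without 2 arrays).

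Much of this shared variation ran along an axis that genes outside the respiratory chain also followed. An axis was taken from the 18058 genes outside the rule, as the first principal component after group means were removed, and it held 12.3% of their variance. This step was added after the data were seen. The first component of the 90 respiratory chain genes, computed alone, held 57.6% of their variance within groups (38% with genes scaled), and its correlation with the outside axis over the 22 arrays was 0.966 in size. Over 50% of the variance within groups lay on the outside axis for 30 of the 108 genes (27.8%), against 4.35% of all genes. Among genes with a mean of at least 7 this held for 49.1% of the respiratory chain genes and 13.2% of all genes.

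By role, 40.6% of the 69 subunits and 10% of the 20 assembly factors had over 50% of their variance there. The assembly factors were Uqcc5 and Ndufaf3. As most assembly factors were dimmer than most subunits, role and signal level were not separated here either. All but 2 of the 30 genes ran in one direction, led by Ndufa11 (r = 0.95), Uqcr11 and Ndufa8 (both 0.94), Ndufs4 and Uqcrq (both 0.93) and Cox5b (0.92). Ndufs1, the largest core subunit of complex I, and the accessory Ndufa9 ran in the opposite direction, with r of -0.77 and -0.73 over both groups. For Ndufs1 this came mainly from the vehicle livers, with r of -0.90 there and -0.42 among treated livers, and for Ndufa9 r was -0.73 and -0.74. Ndufs1 reached 8.23, 8.20 and 8.15 on vehicle replicates 6, 8 and 10, its 3 highest vehicle values, where Ndufs4, an accessory subunit of the same complex, had its 3 lowest vehicle values, 9.04, 9.08 and 8.79. On treated replicates 13, 16 and 23 Ndufs4 was again lowest, at 9.03, 8.92 and 9.29, while Ndufs1 lay at 7.99, 8.03 and 8.07, within the range of the other treated arrays.

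Genes outside the respiratory chain at the same end of the axis included Ost4 (r = 0.95), the mitochondrial ribosomal gene Mrps33 (0.95) and the ribosomal gene Rpl36 (0.95). At the opposite end stood Hspa9, the mitochondrial Hsp70 (-0.96), and the chaperone Canx (-0.94). The share with over 50% of variance on the axis was 27.8% of 72 mitochondrial ribosomal protein genes and 13.8% of 160 cytosolic ones. What sets a liver's place on the axis was not tested, and no measure of RNA quality was used here.

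**Figure D4:**
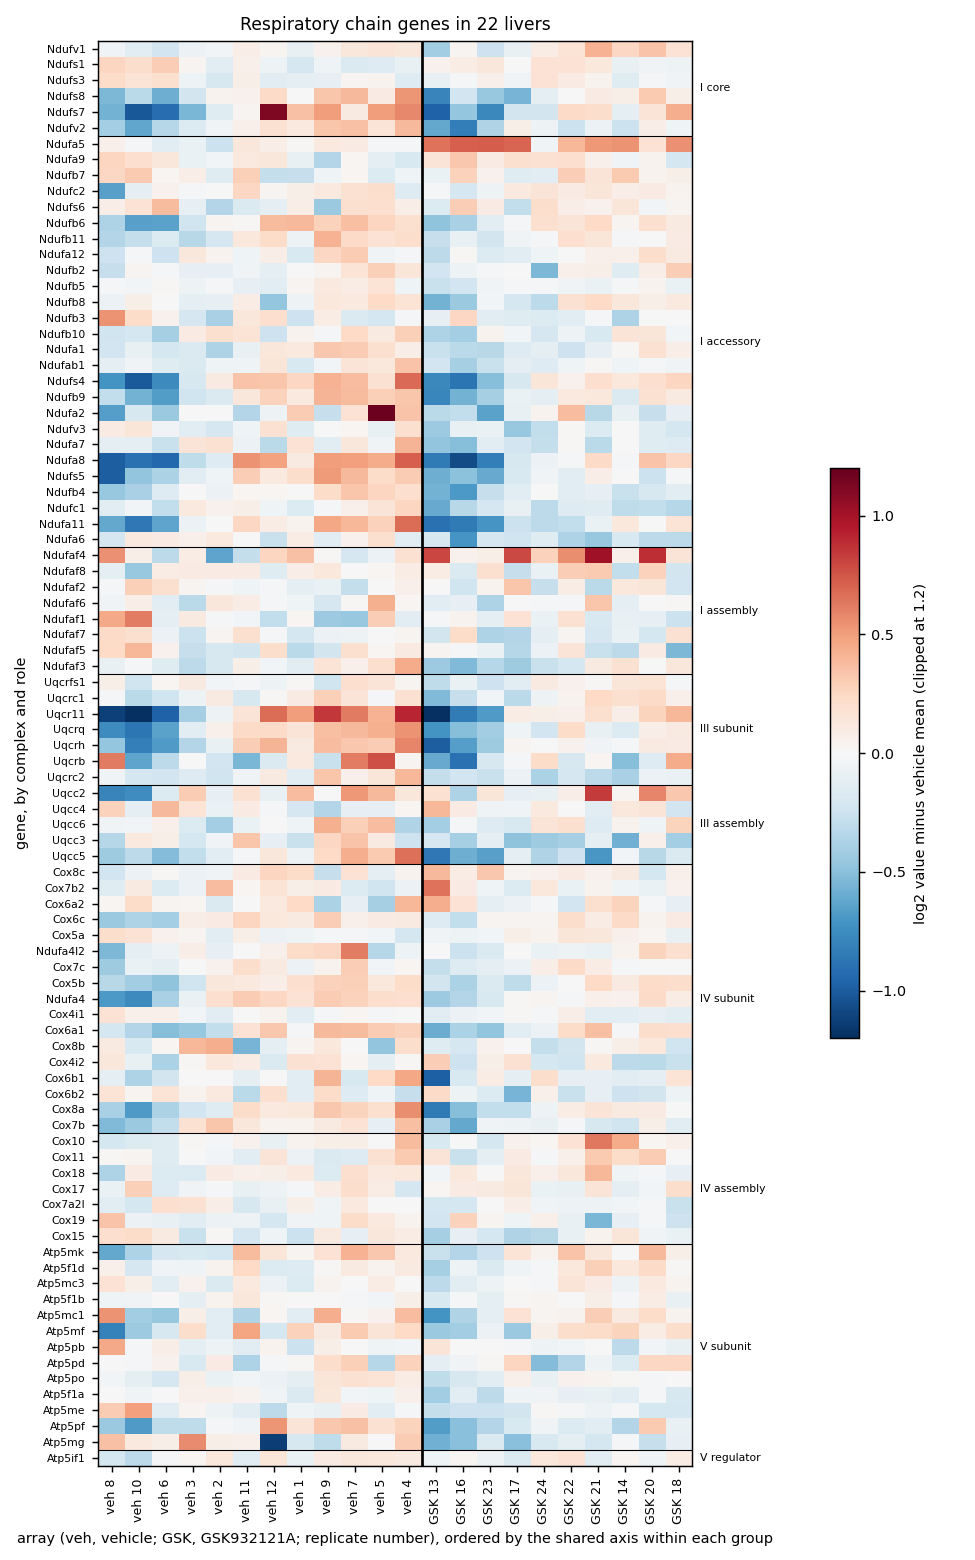
Log2 value minus the vehicle mean (colour, clipped at 1.2) for the 90 respiratory chain genes (y axis) on the 22 arrays (x axis), ordered by the shared axis within each group. Blue columns at the left of each group are vehicle replicates 8, 10 and 6 and treated replicates 13, 16 and 23, and Ndufa5 is red or pale red in every treated column but that of replicate 24.

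**Figure D5:**
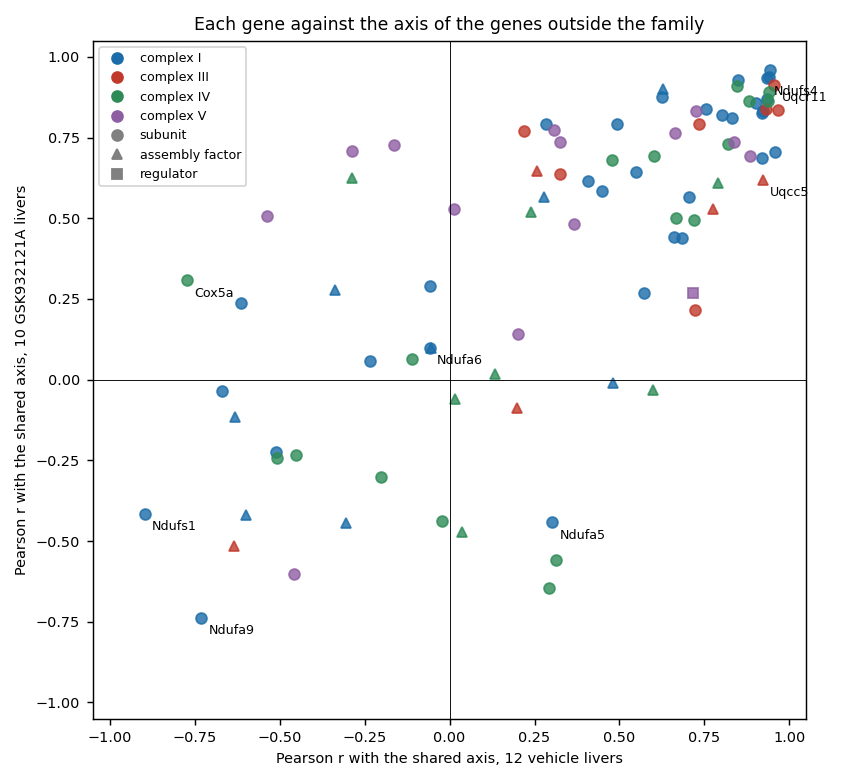
Pearson r of each of the 90 genes with the axis of the genes outside the family, in 12 vehicle livers (x axis) and 10 GSK932121A livers (y axis), by complex (colour) and role (shape). Uqcr11 and Ndufs4 lie at the upper right, Ndufs1 and Ndufa9 at the lower left, and Ndufa6 near the centre.

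With the axis removed from each gene within its group, the median r of subunit pairs was 0.0596 among vehicle and 0.161 among treated livers, and that of complex III subunits 0.0886 and 0.226. The means of complexes I and III then gave r = 0.11 among vehicle livers and 0.791 among treated livers. Those of complexes I and V gave 0.381 and 0.939, and with any 1 array left out 0.112 to 0.589 and 0.904 to 0.971. Without the 6 arrays the median r over all pairs of the 108 genes among treated livers was 0.0718, against 0.149 with them.

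The axis does not differ in mean between the groups, by its construction, so as a covariate it left each difference as it was and changed only its error. A gap between the groups along the axis that arose by chance would thus stay in each difference. Adjusted p-values of this fit can therefore be too small for genes on the axis, and calls it adds are not firm. With the axis in the limma fit 12 of the 108 genes passed (11.1%, against 14.4% of all genes), 2 higher (5.9% of all genes) and 10 lower (8.54% of all genes). All 7 genes named above were among them. The others were the complex I subunits Ndufa11 (limma adjusted p = 0.00176), Ndufb4 (0.00708), Ndufv2 (0.0271) and Ndufs5 (0.0477), and Uqcrc2 (0.0222), and Uqcc5 had 0.00104. Without the covariate, at the same differences, Ndufa11 and Ndufv2 had limma adjusted p of 0.277 and 0.259. Of those 5 further genes only Ndufb4 also passed without the 6 arrays. Pooled over both groups, the variance of Ndufa5, Ndufa6, Ndufaf4 and Uqcc3 lay almost wholly off the axis, with shares of 1.25%, 0.00468%, 0.00833% and 1.01% on it. Opposite signs offset each other in a pooled share. For Ndufa5 r with the axis was 0.30 among vehicle livers and -0.44 among treated livers. Leaving out the 6 low arrays instead gave 6 genes (5.56%, against 6.33% of all genes): Uqcc3 and Uqcc5 were lost and Ndufb4 passed (limma adjusted p = 0.042).

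With 5 surrogate variables in the limma fit, which held 45.5% of the variance of the group term itself, only Ndufaf4 passed (adjusted p = 0.0186), where 3.32% of all genes did. Ndufa5 then had a difference of 0.33 (adjusted p = 0.0934) and Ndufa6 one of -0.32 (adjusted p = 0.101).

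The 300-base windows around the RefSeq starts (GRCr8) were searched on both strands for NRF1 (GCGCA, any base, GCGC), GABP (CCGGAAG), YY1 (AAGATGGC), ERR (TNAAGGTCA), CRE (TGACGTCA), E-box (CACGTG) and Sp1 (GGGCGG). None of these motifs contains another. Windows were at hand for 87 of the 108 genes, 80 of them outside the copies. An NRF1 match was found in 21.2% of the 80 windows and in 4.71% of all 27457 windows, a GABP match in 26.2% and 9.22%, and a YY1 match in 21.2% and 3.44%. Matches to ERR were in 2.5% and 1.15%, to CRE in 2.5% and 1.91%, to the E-box in 8.75% and 6.65%, and to Sp1 in 46.2% and 34.9%. The 27457 windows belong to more genes than the 18166 measured, and they were not matched to the 80 in base composition. NRF1 matches were in 18% of 61 subunit windows and 33.3% of 18 assembly factor windows, and GABP matches in 27.9% and 22.2%. The raised Ndufa5 and Ndufaf4 and the lowered Uqcc5 all held an NRF1 match, so that the match did not separate the directions. A match describes the letters of the window and is not a measured binding site.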

How the data were processed

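The deposited values are log2 expression from RMA, which corrects background, normalises between arrays and summarises probe sets, per the submitters' processing notes. The sources used here name neither the software nor its version. RMA removes shifts common to all genes and compresses changes of dim genes. Of 36685 probe sets, 18511 had 1 symbol. The brightest probe set stood for a gene, which left 18166 genes, and symbols of 107 of the 108 respiratory chain genes matched the gene table by Entrez identifier. Groups were compared with limma 3.58.1 under R 4.3.3, group being the only term, and Benjamini-Hochberg adjustment over all genes. Intervals and p-values are two-sided, and 1 array per animal was the unit. The groups share no replicate numbers, so nothing was paired.

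Respiratory chain genes, related lists and tests were chosen with earlier results of these data known. Named were all genes that passed, all Uqcr and Uqcc genes, the highest and lowest difference of each class, tissue isoforms, and members of other lists that passed. Marker and regulator values, genes at the ends of the shared axis, partners of called genes and genes called in alternatives were added after their values were seen. Alternatives were other normalisations, filters at a mean log2 of 5 or 7, the mean of probe sets, trend and robust settings, array weights, surrogate variables, the Wilcoxon rank sum test and each array left out. The shared axis and the arrays low on it, 3 per group, were added after seeing the data. Summaries used scipy 1.17.1, pandas 2.3.3 and numpy 2.4.6 in Python 3.11.15. On simulated data for 18166 genes, with noise drawn independently for each gene, limma called 8 unchanged genes. The labels name no batch. The number of arrays limits precision.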

Additional observations from a re-analysis of the deposited data

Results flagged for a closer look

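Ndufc1, the complex I accessory subunit, had its lowest treated value in replicate 13, at 8.545. This array stood apart from the other 9 treated arrays by a gap of 0.501 of the group's range, beyond the 95% critical value of 0.466 for 10 samples. Chance gives such a gap in about 1 in 20 groups, so some would arise among many genes. Ndufc1 was not alone in this. On replicate 13 Cox6b1 was at 5.46, with the next lowest treated array at 6.26, and the dim Cox7b2 at 3.45, with the next highest at 2.92. Replicate 13 was also 1 of the 6 arrays low on the shared axis.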

How the results depend on the processing

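The count of respiratory chain genes past the threshold was 7, with 5 to 9 when each array was left out in turn, 1 to 2 higher and 3 to 7 lower. It was 1 with surrogate variables (1 higher, 0 lower) and 12 with the shared axis as a covariate, of which 10 were lower. Adjusted p-values of the fit with the axis can be too small, as stated above. A single gene was higher among genes with a mean of at least 7 and by the Wilcoxon rank sum test. The median difference of the assembly factors, -0.04, was 0.0250 without the 6 arrays. Median r of pairs among vehicle livers was 0.267 among bright genes, 0.0257 with the axis removed and 0.185 after median centring, and among treated livers 0.565, 0.0757 and 0.233, and 0.0718 without the 6 arrays. Signs turned only for genes that had not passed. With surrogate variables differences were 0.0854 for Cox6a1, -0.0861 for Cox6a2, -0.0259 for Cox8c, 0.0248 for Ndufa8, 0.0377 for Ndufs4, 0.0265 for Uqcc6, 0.123 for Uqcr11, 0.0288 for Uqcrb, 0.0277 for Uqcrfs1 and 0.0272 for Uqcrh. Without the 6 arrays they were -0.00387 for Cox8c, 0.0356 for Uqcc6 and 0.0323 for Uqcrfs1. Atp5if1 was at 0.0106 and 0.0188 after quantile and cyclic loess normalisation, Uqcrfs1 at 0.000478 after cyclic loess, and Atp5mk at -0.00974 with the mean of probe sets. With arrays left out, Atp5if1 ran from -0.0313 to 0.0158, Atp5mk from -0.0281 to 0.0695, Uqcc6 from -0.0679 to 0.0111, Uqcrc1 from -0.0774 to 0.00747 and Uqcrfs1 from -0.0513 to 0.00151. The causes were not tested. Of 507 values of the 44 named genes under the other alternatives, 460 kept direction and side of the threshold, 13 lost and 17 gained a call, and 17 turned sign. No paired analysis was possible because the groups share no replicate numbers. Dim genes such as Uqcc5 and Atp5mgl4, near or below the array medians, are the least certain.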
